A study of Homo sapiens with 6 samples.

Results

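A set of 10 liver progenitor and oncofetal genes was examined in HepG2, an established human liver tumour cell line. They are the surface proteins PROM1, EPCAM, CD24 and DLK1, the transcription factors SOX4 and SOX9, the RNA-binding proteins LIN28B, IGF2BP1 and IGF2BP3, and the imprinted gene PEG10. The members were listed by gene symbol, all 10 were found among the 26475 rows of the table, and all 10 passed the filter on low counts that left 12902 tested genes. RNA sequencing had been done on 3 libraries of TAF2-expressing HepG2 and on 3 libraries of HepG2 expressing the reporter protein eGFP. TAF2 is a core promoter-contacting part of TFIID, which helps RNA polymerase II start transcription. All 6 libraries came from exponentially growing HepG2, labelled HCC (hepatocellular carcinoma), and no other treatment is named. How the 2 proteins were introduced, and whether the cells were pools or clones, is not given in the sources used here. The labels do not tell separate cultures from repeat preparations, so the p-values below rest on a spread between libraries that may be technical.

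Hepatoblasts, the bipotent cells of the fetal liver, carry EPCAM and DLK1 on their surface and give rise to hepatocytes and to bile duct cells. SOX9 and SOX4 act on the biliary side of that choice, whereas mature hepatocytes lose most of these markers. LIN28B, IGF2BP1 and IGF2BP3 are oncofetal: they are abundant in embryonic tissue, are mostly silent in adult liver and return in liver cancer. LIN28B binds precursors of the let-7 microRNAs and blocks their maturation, and let-7 in turn represses LIN28B and IGF2BP transcripts.

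The transcripts of LIN28B, IGF2BP1 and IGF2BP3 hold matches to part of the let-7 sequence, so that sequence and its matches are shown here. The mature let-7a and let-7b (RefSeq, GRCh38.p14) are printed first, with the seed, bases 2 to 8, in capitals. The other lines are matches to that seed in the 3' untranslated regions of GENCODE v29 transcripts (GRCh38), with the DNA letters CTACCTC in capitals. Shown are the 6 of 9 matches that are followed by an A, the base that strengthens let-7 sites when it lies opposite the first base of the microRNA.
hsa-let-7a-5p: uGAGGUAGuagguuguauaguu
hsa-let-7b-5p: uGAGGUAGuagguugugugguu
LIN28B, chr6:105078813-105078835, plus strand: cccggttgcaaagtCTACCTCat
LIN28B, chr6:105081422-105081444, plus strand: tttacagcaaaaggCTACCTCat
IGF2BP1, chr17:49051062-49051084, plus strand: gtgtgcgaagtaaaCTACCTCaa
IGF2BP1, chr17:49053699-49053721, plus strand: agcagtgctagtaaCTACCTCac
IGF2BP1, chr17:49054353-49054375, plus strand: tataaatggattaaCTACCTCaa
IGF2BP3, chr7:23311794-23311816, minus strand: gcatttttactcaaCTACCTCag
LIN28B and IGF2BP1 each held 4 such matches on the transcript strand and IGF2BP3 held 1. The other 7 members held none. Of 11596 tested genes with a 3' untranslated region, 1183 (10.2%) held at least 1 match and 9 held at least 4. LIN28B and IGF2BP1 also have long 3' untranslated regions, of 4549 and 6206 bases against a median of 1173 over those genes. A match is a description of letters. Mature let-7 RNAs were not measured here, and the host transcripts MIRLET7BHG and MIRLET7DHG had at most 6 and 0 counts in any library.

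Totals per library were 22276308 to 28024004 counts. Levels are in CPM, counts scaled to a common library size, and a gene is called when its Benjamini-Hochberg adjusted p over all tested genes is below 0.05 in edgeR's quasi-likelihood test. TAF2 itself had 35.8, 40.4 and 37.5 CPM in the eGFP libraries and 50.1, 48.3 and 47.4 CPM in the TAF2 libraries, a log2 fold change of 0.36 (edgeR adjusted p = 1.44e-08). The 14 hepatocyte and hepatoblast markers were all present, and their summed level was 52542 to 53922 CPM in eGFP and 42044 to 43813 CPM in TAF2 libraries. The 5 proliferation markers summed to 1595 to 1618 and 1681 to 1749 CPM. Of 12 markers of immune, endothelial and mesenchymal cells, PTPRC, CD3E and DCN were at 0 in every library and 7, these 3 included, stayed below 1 CPM. The list summed to 102 to 109 CPM in both groups, although PDGFRB (log2 fold change 1.32) and COL1A1 (1.13) rose and CD68 (-0.40) fell within it. The part of these marker shifts in the results below was not tested.

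With TAF2, 5 members were lower (PROM1, LIN28B, EPCAM, DLK1 and SOX9) and PEG10 was higher. CD24, SOX4, IGF2BP1 and IGF2BP3 did not pass the threshold. PROM1 fell 4.46-fold, and the other called members changed by less than 1.5-fold. So 6 of 10 members were called where 43.0% of all tested genes were. In single directions 5 of 10 were lower, against 22.4% of tested genes, and 1 of 10 higher, against 20.6%. The median log2 fold change was -0.05 over the 10 members and 0.00 (-0.00275) over all tested genes, and the median absolute value was 0.16 against 0.13.

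**Figure D1:**
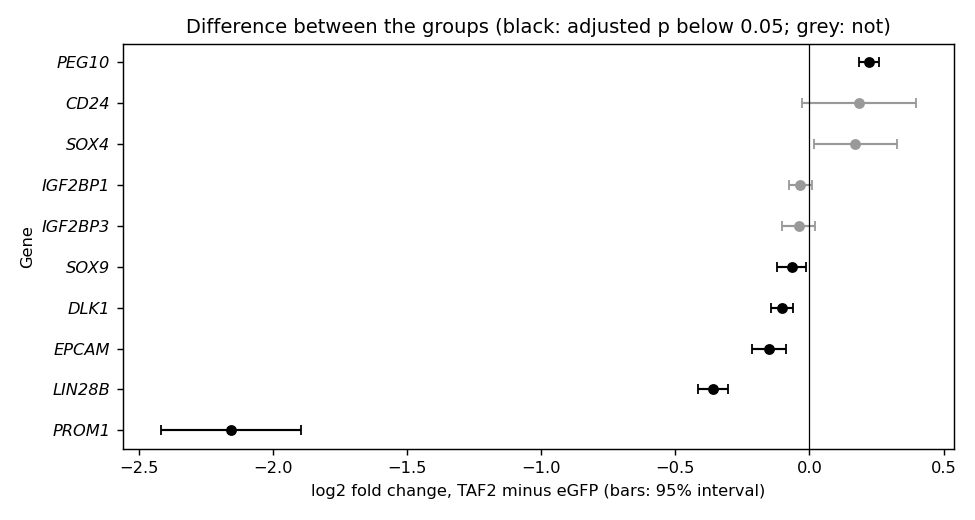
Difference between TAF2 and eGFP libraries for each gene, as a log2 fold change on the x axis with its 95% interval (3 libraries per group); black marks an adjusted p below 0.05 and grey the others. PROM1 sits at -2.16, far from the other 9 genes, which lie between -0.36 and 0.22.

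Counts depend on transcript length, so levels of different genes were compared as CPM per kilobase of transcript. The length was the median over a gene's matched transcripts. For IGF2BP1 (4795.5 bases) and CD24 (1502.5 bases) it was shorter than the gene's longest 3' untranslated region (6206 and 1830 bases). Their levels per kilobase may therefore be too high, and the SDs below hold no error of length. In eGFP cells the order was PEG10 (377 ± 6.07), DLK1 (132 ± 1.29), IGF2BP1 (131 ± 1.43), EPCAM (62.6 ± 1.83), SOX9 (58.8 ± 2.12), LIN28B (41.4 ± 1.63), IGF2BP3 (23.6 ± 0.262), CD24 (4.30 ± 0.473), SOX4 (2.37 ± 0.0928) and PROM1 (2.24 ± 0.0999 CPM per kilobase, SD, n = 3 each). With these lengths DLK1 and IGF2BP1 overlapped between libraries, as did SOX4 and PROM1. EPCAM overlapped SOX9 at the edge (61.2 against 61.2 CPM per kilobase). The overlap of DLK1 and IGF2BP1 depends on the length taken for IGF2BP1. PEG10 ranked 136th of the 12407 tested genes with a length, and PROM1 ranked 9836th. In TAF2 cells PROM1 was at 0.499 ± 0.0600 CPM per kilobase and no longer overlapped SOX4 (2.68 ± 0.294; SD, n = 3 each). Progenitor surface markers thus spanned a wide range of levels in this line, from DLK1 at the top to CD24 and PROM1 at the bottom.

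**Figure D2:**
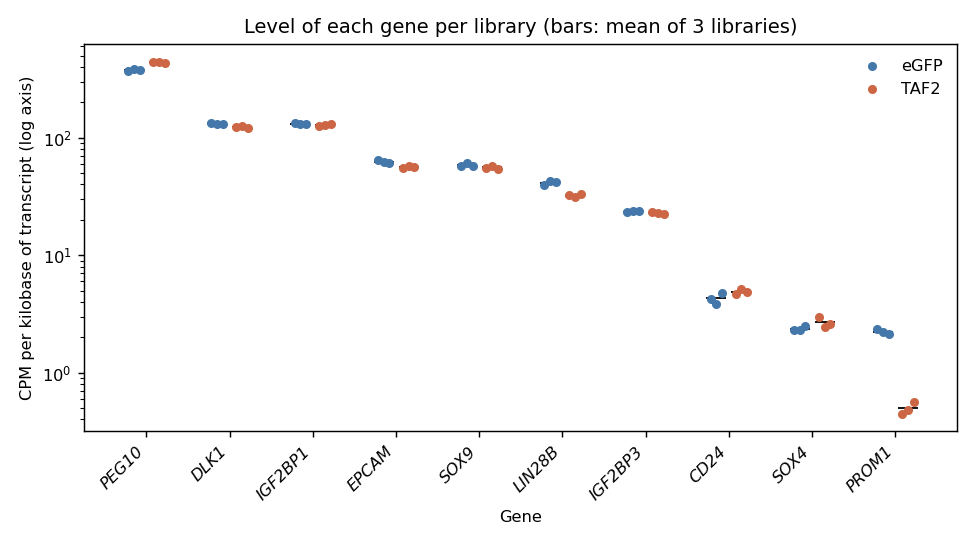
Level of each gene per library, in CPM per kilobase of transcript on a log axis, with 3 points per group and a bar at each mean (blue eGFP, orange TAF2). PEG10 is highest in both groups, and PROM1 is the gene whose groups stand farthest apart, at 2.24 and 0.499.

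PROM1 encodes prominin-1 (CD133), a membrane glycoprotein of cell protrusions that is widely used to sort stem-like and progenitor cells. The gene lies on chromosome 4 (15968228 to 16084023, GRCh38.p14). It had 9.33, 8.86 and 8.54 CPM in the eGFP libraries and 1.78, 1.92 and 2.25 CPM in the TAF2 libraries. Every TAF2 library was far below every eGFP library, with 44 to 63 counts against 197 to 253. The level went from 8.91 ± 0.397 to 1.99 ± 0.239 CPM (SD, n = 3 each). The edgeR adjusted p was 7.52e-18 for a log2 fold change of -2.16 with SE 0.129, the 67th largest absolute change among tested genes. Under a test that asks for more than a 1.5-fold change, PROM1 was the 1 member still called, as were 2.89% of all tested genes. In bulk RNA, fewer cells carrying PROM1 and less PROM1 RNA per cell cannot be told apart.

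The fall of PROM1 was larger than that of its neighbours on chromosome 4, a chromosome on which most called genes were lower. The nearest tested genes were FAM200B (log2 fold change -0.21) and the ubiquitin ligase adaptor FBXL5 (-0.06) on one side, and TAPT1 (-0.11) and TAPT1-AS1 (-0.13) on the other. None of these 4 passed the threshold. Over the 12 other tested genes within 2 Mb the median was -0.15, with 5 lower and 1 higher. Over the 411 other tested genes of chromosome 4 it was -0.18, with 238 lower and 25 higher. Among all 12902 tested genes 2886 (22.4%) were lower and 2662 (20.6%) higher.

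The genes whose levels followed PROM1 most closely were found by the distance between 6 log2 CPM values, each gene centred on its eGFP mean, over 10348 genes of at least 5 CPM. They were MTTP (distance 0.297), which loads lipid onto apolipoprotein B, the myosin light chain MYL9 (0.336) and the metalloprotease MEP1A (0.391). Their log2 fold changes were -2.09, -2.21 and -2.14. MTTP lies on chromosome 4, as PROM1 does, MYL9 on chromosome 20 and MEP1A on chromosome 6. Likeness here mostly reflects the size of the group difference, since 6 libraries in 2 groups hold little else.

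EPCAM, a cell adhesion molecule of hepatoblasts and bile duct cells, lies on chromosome 2 (47369311 to 47387020). Its level was 111, 107 and 105 CPM in eGFP and 95.6, 99.0 and 97.1 CPM in TAF2 libraries. The groups did not overlap, but the gap between the nearest libraries was small. EPCAM fell by 9.96% (95% interval of the change -13.8% to -5.97%; edgeR adjusted p = 9.01e-05 for a log2 fold change of -0.15 with SE 0.031). Of the 2 nearest tested genes on each side, 2 were lower, the calmodulin gene CALM2 was higher (0.06) and BCYRN1 did not pass (-0.23). Over 16 tested genes within 2 Mb the median log2 fold change was -0.08. Of these 16 genes 7 were lower and 3 higher, against 22.4% and 20.6% of all tested genes.

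DLK1 encodes a membrane protein related to Notch ligands that marks hepatoblasts, and it is expressed from the paternal allele (chromosome 14, 100726892 to 100738224). It had 632, 619.7 and 623 CPM in eGFP and 584, 590.05 and 573 CPM in TAF2 libraries. All TAF2 libraries were below all eGFP libraries. DLK1 fell by 6.85% (edgeR adjusted p = 9.52e-05 for a log2 fold change of -0.10 with SE 0.021). MEG3, the maternally expressed RNA of the same imprinted cluster, had at most 1 count in any library, and RTL1 at most 6. The nearest tested genes were uneven: WARS (0.13) and PPP2R5C (0.18) were higher, WDR25 (0.31) did not pass, and the scarce LINC00239 (-1.02, at 0.525 CPM in eGFP cells) was lower.

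CD24 encodes a small, heavily glycosylated surface protein linked to liver tumour-initiating cells (chromosome 6, 106969831 to 106976855). Its level was 6.38, 5.80 and 7.22 CPM in eGFP and 7.01, 7.77 and 7.32 CPM in TAF2 libraries. The groups overlapped, and the difference did not pass the threshold (edgeR adjusted p = 0.158 for a log2 fold change of 0.18 with SE 0.105). Its 95% interval ran from a change of -1.89% to one of 31.7%, which leaves room for a rise of moderate size, and the counts per library were 129 to 205. CD24 has near-identical processed copies elsewhere in the genome, and its value is uncertain for that reason as well. Among the 4 surface proteins, then, 3 were lower by very different amounts, with changes of -77.6% for PROM1, -9.96% for EPCAM and -6.85% for DLK1.

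**Figure D3:**
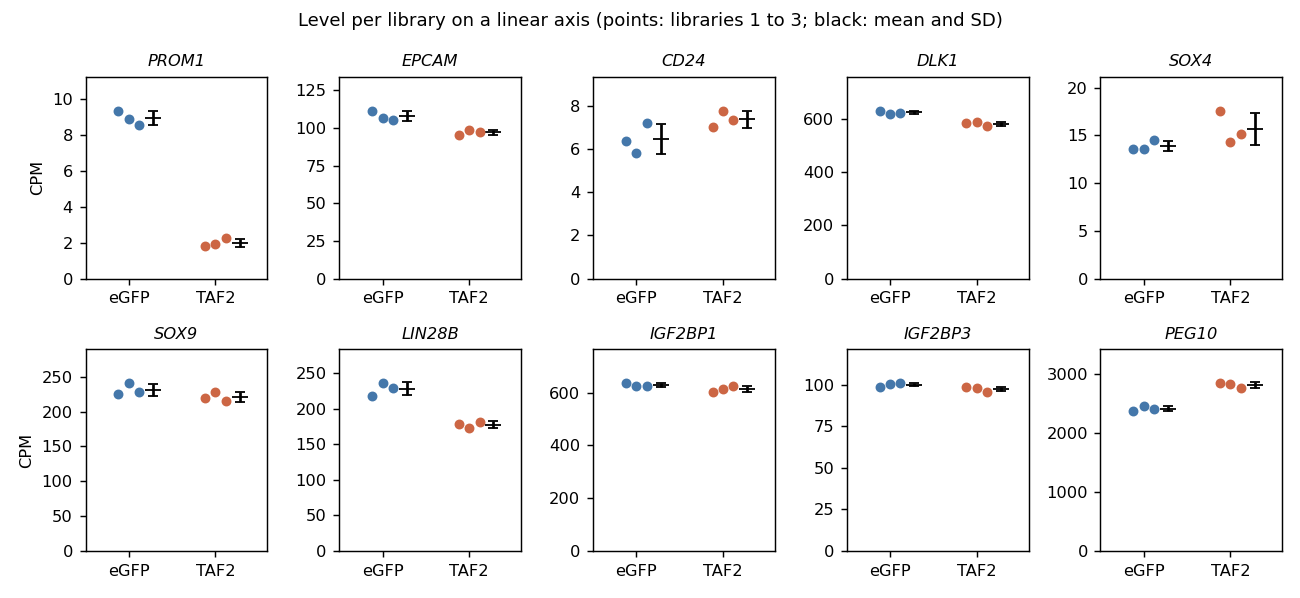
Level of each gene in CPM on a linear axis from 0, with 1 point per library (3 per group) and the mean and SD in black beside them. PROM1, LIN28B, EPCAM and DLK1 are lower and PEG10 higher in every TAF2 library, while the CD24, SOX4, SOX9 and IGF2BP1 groups overlap.

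SOX9, a transcription factor of bile duct cells and of liver progenitors (chromosome 17, 72121020 to 72126416), had 226, 241 and 227 CPM in eGFP and 219, 228 and 215 CPM in TAF2 libraries. The second TAF2 library was above 2 eGFP libraries, so the groups overlapped. The fall of 4.48% passed the threshold narrowly (edgeR adjusted p = 0.0440 for a log2 fold change of -0.07 with SE 0.027). It was lost in 8 of 14 alternative analyses, among them the DESeq2 test (adjusted p = 0.171) and the fits without eGFP replicate 2 (0.392), without TAF2 replicate 1 (0.149) or without TAF2 replicate 3 (0.244). On one side of SOX9 the nearest tested genes, 2838 and 2639 kb away by midpoint, were the transporter ABCA5 (-0.63) and the kinase MAP2K6 (-0.28), both lower. On the other side LINC00673 (-0.30) was lower and LINC00511 (0.21) did not pass.

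SOX4, which acts with SOX9 in bile duct formation (chromosome 6, 21593751 to 21598619), had 13.6, 13.5 and 14.5 CPM in eGFP and 17.6, 14.3 and 15.1 CPM in TAF2 libraries. TAF2 replicate 2 lay inside the eGFP range. SOX4 did not pass the threshold (edgeR adjusted p = 0.0667 for a log2 fold change of 0.17 with SE 0.077), but it did without TAF2 replicate 2 (log2 fold change 0.23, adjusted p = 0.0224), with upper-quartile scaling (0.0439) and with no filter on low counts (0.0448).

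Of the 18 other SOX genes, 7 were tested, 1 fell and 0 rose. SOX12, a relative of SOX4 in the SoxC group, went from 251 ± 2.99 to 230 ± 2.94 CPM (SD, n = 3 each; edgeR adjusted p = 2.93e-05, log2 fold change -0.13). The endodermal factor SOX17 and the pluripotency factor SOX2 had at most 0 and 1 counts in any library. SOX9 and SOX12 were therefore the SOX genes of highest CPM among those examined. Both were slightly lower with TAF2, SOX12 without overlap of the groups and SOX9 with overlap and only narrowly past the threshold.

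LIN28B, the let-7 blocker, lies on chromosome 6 (104937026 to 105083332). It had 218, 236 and 229 CPM in the eGFP libraries and 179, 172 and 181 CPM in the TAF2 libraries. The groups were well apart, with the highest TAF2 library below the lowest eGFP library. LIN28B fell by 21.99% (95% interval of the change -25.0% to -18.9%), from 228 ± 8.96 to 177 ± 4.84 CPM (SD, n = 3 each; edgeR adjusted p = 1.82e-13 for a log2 fold change of -0.36 with SE 0.028). Its paralog LIN28A had at most 1 count in any library. The antisense gene LIN28B-AS1, listed under the older name LINC00577, had at most 4 counts, so it can hold little of the LIN28B signal.

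The 2 nearest tested genes on each side of LIN28B were BVES, PREP, HACE1 and ASCC3. BVES was lower (log2 fold change -0.90) but sat at 1.70 CPM in eGFP cells. HACE1 (-0.07) and PREP (0.01) did not pass the threshold, and ASCC3 (-0.09), whose midpoint is 4315 kb away, was lower. Over 8 tested genes within 2 Mb the median was -0.03, with 2 lower and 0 higher.

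IGF2BP1, which binds and stabilises growth-related mRNAs (chromosome 17, 48996558 to 49056145), had 636, 626 and 623 CPM in eGFP and 604, 612 and 626 CPM in TAF2 libraries. The third TAF2 library lay within the eGFP range. The difference did not pass the threshold (edgeR adjusted p = 0.208 for a log2 fold change of -0.03 with SE 0.021), and its 95% interval ran from -5.15% to 0.64%. A change of the size seen for LIN28B lies outside that interval.

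IGF2BP3, a second member of that protein family (chromosome 7, 23310209 to 23470491), had 98.9, 100.4 and 101.0 CPM in eGFP and 98.5, 97.8 and 95.9 CPM in TAF2 libraries. All TAF2 libraries were below all eGFP libraries, but by as little as 0.334 CPM, and the difference did not pass the threshold (edgeR adjusted p = 0.313 for a log2 fold change of -0.04 with SE 0.030; 95% interval -6.76% to 1.54%). Of the 10 members 6 had no overlap between the groups, against 50.6% of all tested genes. In single directions these were 5 lower, against 26.1%, and 1 higher, against 24.5%. The 3' end of IGF2BP3 overlaps MALSU1 (log2 fold change -0.06, not called), and without strand information their shared reads cannot be told apart. The ratio of IGF2BP1 to IGF2BP3 CPM stayed between 6.13 and 6.53 over all 6 libraries. The third family member, IGF2BP2, was lower with TAF2 (log2 fold change -0.12, edgeR adjusted p = 0.000242).

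PEG10, a gene derived from a retrotransposon and expressed from the paternal allele, is active in placenta and fetal liver and is often raised in liver cancer (chromosome 7, 94656325 to 94669695). It had 2371, 2448 and 2407 CPM in the eGFP libraries and 2843, 2831 and 2758 CPM in the TAF2 libraries. Every TAF2 library was above every eGFP library. PEG10 rose by 16.7% (95% interval 13.6% to 19.8%), from 2409 ± 38.8 to 2811 ± 46.5 CPM (SD, n = 3 each; edgeR adjusted p = 4.58e-13 for a log2 fold change of 0.22 with SE 0.019).

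SGCE starts beside PEG10, reads in the opposite direction and is imprinted with it, yet it did not pass the threshold (log2 fold change -0.09, edgeR adjusted p = 0.244). PEG10 had 86.9 to 99.4 times the CPM of SGCE in eGFP libraries and 115 to 120.2 times in TAF2 libraries. The other nearest tested genes, CASD1 (-0.07), PPP1R9A (-0.03) and PON3 (0.17), did not pass either. Thus 0 of the 4 nearest tested genes were called, against 43.0% of all tested genes. Over 13 tested genes within 2 Mb the median log2 fold change was 0.01, with 3 higher and 1 lower.

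**Figure D4:**
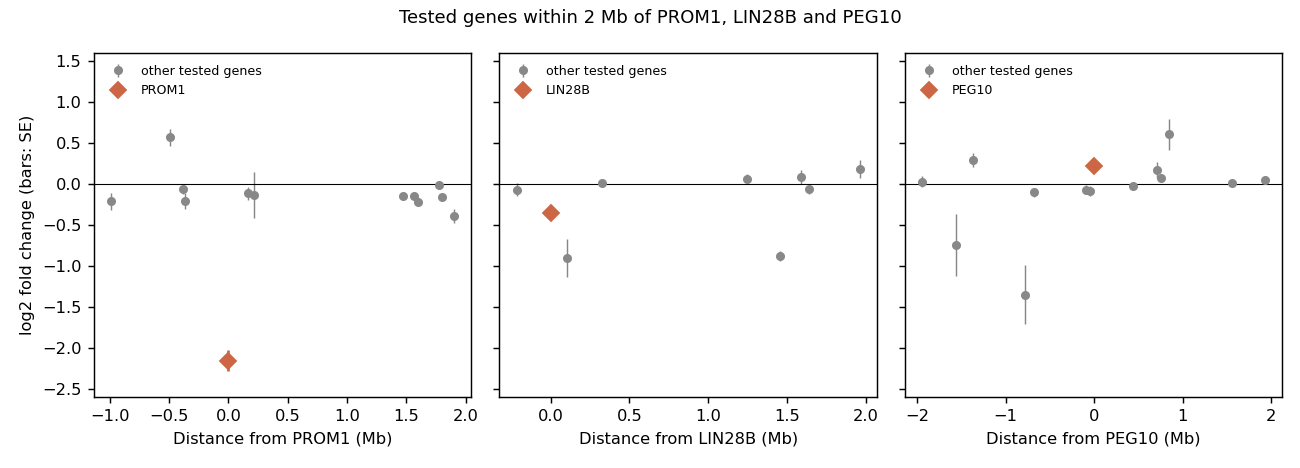
Log2 fold change (y axis, with SE) of the tested genes within 2 Mb of PROM1, LIN28B and PEG10, by distance between gene midpoints in Mb; the diamond is the named gene. PROM1 at -2.16 lies far below its neighbours, whose median is -0.15. The nearest neighbours of PEG10, none of them called, lie between -0.09 (SGCE) and 0.17 (PON3), and PEG10 itself is at 0.22.

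TFIID acts at core promoters, so sequence upstream of RefSeq start sites is shown for PROM1 and LIN28B, the members with the largest falls. Each is the part of the 250 bases before a start that lies outside GENCODE v29 exons of that gene (GRCh38.p14, 5' to 3' on the gene's strand). The PROM1 stretches end 4 bases and 1 base before their starts, and the LIN28B stretches 100 and 60 bases before theirs. The bases nearest the LIN28B starts, and all bases from each start onward, are therefore not shown. The RefSeq promoters used here give 4 starts for PROM1, of which 2 are shown, and 2 for LIN28B. Both PROM1 stretches lie downstream of the start at 16084023, and the second also lies downstream of those at 16083729 and 16083336. The RefSeq range of LIN28B begins before both of its starts used here, at 104937026, so both LIN28B stretches lie inside the gene. The second LIN28B stretch also lies downstream of the LIN28B start at 104940965. Transcripts from such earlier starts would run across these stretches as intron. Capitals mark a match on either strand to the CCAAT box (CCAAT), the GC box (GGGCGG), the TATA box (TATAAA) or the E-box (CACGTG).
PROM1, chr4:16083733-16083977, minus strand: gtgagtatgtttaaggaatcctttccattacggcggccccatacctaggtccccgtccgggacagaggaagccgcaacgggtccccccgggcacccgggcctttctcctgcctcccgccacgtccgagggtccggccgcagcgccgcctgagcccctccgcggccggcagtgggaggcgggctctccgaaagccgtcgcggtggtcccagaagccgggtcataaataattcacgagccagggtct
PROM1, chr4:16076119-16076368, minus strand: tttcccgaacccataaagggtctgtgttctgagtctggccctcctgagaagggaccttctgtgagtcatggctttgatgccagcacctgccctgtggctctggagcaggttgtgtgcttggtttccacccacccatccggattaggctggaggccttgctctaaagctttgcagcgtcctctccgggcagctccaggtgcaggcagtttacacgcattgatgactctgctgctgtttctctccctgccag
LIN28B, chr6:104940715-104940865, plus strand: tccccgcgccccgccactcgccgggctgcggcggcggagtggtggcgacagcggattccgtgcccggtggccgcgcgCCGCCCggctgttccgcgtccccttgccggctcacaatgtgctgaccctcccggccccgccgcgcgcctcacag
LIN28B, chr6:104956857-104957047, plus strand: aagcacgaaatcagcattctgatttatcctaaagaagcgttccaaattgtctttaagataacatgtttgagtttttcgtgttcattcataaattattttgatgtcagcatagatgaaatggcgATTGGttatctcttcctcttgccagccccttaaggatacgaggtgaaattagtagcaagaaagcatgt
Motifs were counted over the whole 250 bases before each start, parts of which are not printed. The 250 bases before the LIN28B start at 104940965 held 2 GC boxes, and those before 104957107 held 1 CCAAT box and 1 E-box. Of the 4 PROM1 promoters, the one before the start at 16084023 held 1 CCAAT box, the one before 16083336 held 1 GC box, and the 2 shown in part or whole held none of the 4 motifs. Over 35116 RefSeq promoters of 250 bases, 42.6% held a GC box, 32.0% a CCAAT box, 10.7% a TATA box and 6.34% this E-box. The printed PROM1 stretches differed in base composition, with 25 CpG in 245 bases and 5 CpG in 250 bases. Counts per gene do not show which start was used in these cells.

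Genes that share a pathway or a tissue role with the members were described as lists, some of which share genes such as IGF2. Other progenitor, biliary and stem-like markers were mostly higher where called: of 25 genes, 15 were tested, 9 rose and 2 fell, and the median of their log2 fold changes was 0.32. The secreted phosphoprotein SPP1 (osteopontin), a bile duct marker, rose from 336 ± 6.45 to 739 ± 6.86 CPM (SD, n = 3 each; edgeR adjusted p = 4.55e-35, log2 fold change 1.14). The tight junction protein CLDN4 rose (0.45) and the adhesion receptor ICAM1 fell (-0.44). The bile duct keratin KRT19 rose (0.32). Some, but not all, of the other genes of the list were near 0. The bile duct keratin KRT7 had at most 5 counts in any library and CD44 at most 1. The bile duct channels CFTR and AQP1, with THY1 and KIT, had 0.

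Other oncofetal liver genes went both ways: of 20 genes, 16 were tested, 6 rose and 6 fell, and the median of their log2 fold changes was -0.01. The growth factor IGF2 fell from 8527 ± 252 to 5371 ± 71.0 CPM, and the heparan sulfate proteoglycan GPC3 from 2268 ± 36.0 to 1867 ± 18.0 CPM (SD, n = 3 each). IGF2 lies on chromosome 11. The aldo-keto reductase AKR1B10 (0.71, reads shared with close paralogs) and DCDC2 (0.57) rose.

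In the LIN28, let-7 and IGF2BP list, 32 of 36 genes were tested, 8 rose and 6 fell, with a median of 0.01. IGF2, an mRNA bound by IGF2BP proteins, fell (-0.67), as did DGCR8 (-0.17), a part of the microRNA-processing complex. DIS3L2, the exonuclease that degrades let-7 precursors after LIN28 binding, rose (0.29), as did HMGA1 (0.11) and ACSL3 (0.20). These named rises were all smaller in size than the fall of LIN28B.

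The Notch pathway, in which DLK1 acts as an atypical ligand and which lies upstream of SOX9 in bile duct formation, had 32 of 38 genes tested, 8 higher and 8 lower, with a median of 0.01. The Notch target HEY1 rose from 9.01 ± 0.824 to 28.5 ± 1.34 CPM (SD, n = 3 each; edgeR adjusted p = 6.44e-23, log2 fold change 1.66). The receptor NOTCH2 (0.84, uncertain because near-identical NOTCH2NL copies share its reads) and the target HES1 (0.52) also rose, while the glycosyltransferase MFNG fell (-1.10).

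Among other imprinted genes 29 of 46 found were tested, 5 rose and 9 fell, with a median of -0.06. Besides IGF2, the named falls were the adaptor GRB10 (-0.40) and the receptor IGF2R (-0.13), and BLCAP rose (0.20). PEG10 and DLK1, the imprinted members, thus moved in opposite directions and both by little.

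**Figure D5:**
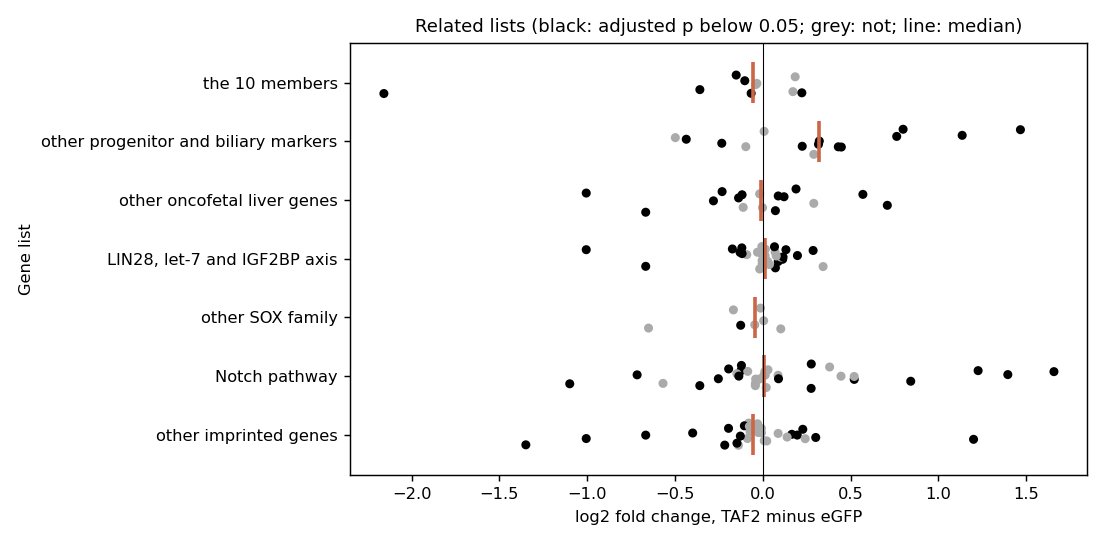
Log2 fold changes of the tested genes of each list (x axis; 1 point per gene, black for an adjusted p below 0.05), with the median as an orange line and points spread vertically for legibility. The progenitor and biliary list has the median farthest from 0, at 0.32, and the other lists lie between -0.06 and 0.01.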

How the data were processed

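For the 6 libraries the authors deposited expected counts of genes, not normalized, beside RefSeq transcript identifiers. The submitters' processing notes name RSEM and hg38. The aligner, the annotation release or a strand setting is not given in the sources used here. RSEM splits shared reads by probability, and 4.18% to 4.45% of values per library were not whole. Values were rounded, kept by filterByExpr (12902 genes), scaled by TMM (0.9976 to 1.003) and tested with edgeR 4.0.16 in R 4.3.3 (glmQLFit, robust; glmQLFTest; group alone). The biological coefficient of variation was 2.75%, small for replicates, so small differences can be called. The test was checked on simulated counts. DESeq2 1.42.0 and limma 3.58.1 were alternatives. Columns of per-sample values left unused numbered 0.

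Positions came from RefSeq (GRCh38.p14; 98.1% of tested genes matched) and lengths from GENCODE v29 transcripts with the same accessions (96.2%). RefSeq promoters matched 5 members: PROM1, SOX4, LIN28B, CD24 and IGF2BP3. Members and lists were chosen with earlier results of these data known. Named are all members, up to 4 called genes of smallest p per list, the 2 nearest tested genes on each side of called members (some given by count), and the 3 genes most like PROM1. Other genes are named as markers or relatives, chosen after their values were seen. Some items that this rule names are not reported here.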

Additional observations from a re-analysis of the deposited data

How the results depend on the processing

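The directions of all 10 members and of TAF2 were the same under all 14 alternatives, and PROM1 was called in each, with log2 fold changes from -2.26 to -2.08. LIN28B, EPCAM, DLK1 and PEG10 were called in 13 of 14, and not against a 1.5-fold change. CD24, IGF2BP1 and IGF2BP3 were called in 0 of 14. Members called higher numbered 2 with upper-quartile scaling and with no filter on low counts, SOX4 being the added gene, and 1 to 2 when single libraries were left out, where members called lower numbered 4 to 5. Against a 1.5-fold change 0 members were higher and 1 lower, and over all genes 153 were higher and 220 lower. In that test the progenitor and biliary list had 2 higher and 0 lower, the oncofetal list 1 and 1, the LIN28 list 0 and 1, the SOX list 0 lower, the Notch list 3 and 1, and the imprinted list 0 and 1. These lower counts follow from the larger change asked for. With DESeq2 the Notch list had 5 lower and the imprinted list 3 higher; the cause was not tested. Without single libraries the SOX list had 1 to 2 lower, 2 without eGFP replicate 3. Upper-quartile scaling called 3001 genes higher and 2675 lower.

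The replicate numbers are shared between groups. Same-numbered libraries did not deviate together (r = -0.0446, -0.0905 and -0.103 across genes, against 0.00935 to 0.0833 for other pairs). Deviations were taken from the mean of each group, which ties these values to one another. Whether same-numbered libraries shared a culture or preparation is not given by the labels and was not tested. With the replicate block 2489 genes were higher and 2761 lower, and 1 and 5 members. Depth limits PROM1, CD24 and SOX4 most, at 44 to 434 counts per library.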

Other observations

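Log2 fold changes are given here for tested genes with a 3' untranslated region, by their number of let-7 seed matches. The 1183 genes with at least 1 match had a median log2 fold change of 0.00 (0.000737), with 22.3% higher and 22.9% lower. The 10413 genes with no match had a median of 0.00 (-0.00203), with 21.6% higher and 23.3% lower. The 137 genes with at least 2 matches had a median of 0.03, with 25.5% higher and 22.6% lower, and a median 3' untranslated region of 4720 bases against 1040 bases for genes with no match. The difference between these sets was not tested.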
